A study of Mus musculus with 16 samples.

Results

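Genes that define microglia and macrophages were read out here in chromatin from sorted retinal ganglion cells, whose axons form the optic nerve. The 9 genes were Aif1, Cx3cr1, P2ry12, Tmem119, Csf1r, Itgam, Trem2, Tyrobp and Ptprc. They were taken by name from a table of 37255 gene intervals, and all 9 were present. The study used ATAC-seq, in which a transposase cuts accessible DNA and tags it for sequencing, on cells isolated by flow cytometry from eyes of female mice. Experimental autoimmune encephalomyelitis (EAE), an inflammatory demyelinating disease model, was started when the mice were 7 to 8 weeks old. The 16 libraries were 5 from naive controls, 4 from mice with EAE before symptoms, 3 at disease onset and 4 at disease peak. No strain, transgene or sorting marker was given in the sources used here, and neither was the age at collection or whether each library came from its own animal. The p-values therefore reflect only variation among these libraries, which may be technical.

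Microglia are the resident macrophages of the retina and brain, and they survey neurons and clear debris. Signals from neurons and from the tissue, received by receptors such as CX3CR1, CSF1R, P2RY12 and TREM2, keep them alive and tune their reactivity. During EAE, microglia become activated and macrophages derived from blood monocytes enter nervous tissue. Genes of these cells in a neuronal sort were therefore taken as a readout of myeloid chromatin. All other sorted cells carry the same genes, and bulk reads do not show which cells they came from.

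For genes over 2000 bp, all 9 members among them, the deposited values imply a counted window 2000 bp shorter than the gene. The window was taken as the gene body without 1000 bp at each end. This placement is inferred from the lengths and was not checked against reads. So placed, none of the 9 values includes the start as deposited. The deposited starts of Csf1r, Tyrobp, Aif1, P2ry12 and Tmem119 differ from those in RefSeq (GRCm38.p6). Whether a window holds a further start was not examined. Leaving out the start matters for myeloid genes, whose promoters carry sites for PU.1, the lineage factor encoded by Spi1. The core letters of such a site, GAGGAA, were searched on both strands in the 250 bases before each RefSeq start (GRCm38.p6). RefSeq promoter windows were at hand for 6 of the 9 genes, 7 windows in all since Ptprc had 2. The letters occurred in 4 of the 7, against 23.3% of 32851 mouse windows of the same length. The windows before Itgam (chr7:128062390-128062639, plus strand) and Trem2 (chr17:48346151-48346400, plus strand) are printed to show the stretch that counts so placed leave out. Capitals mark the letters or their reverse complement, and the first bases lie 84 and 15 bases before the Itgam start and 40 before the Trem2 start.
Itgam: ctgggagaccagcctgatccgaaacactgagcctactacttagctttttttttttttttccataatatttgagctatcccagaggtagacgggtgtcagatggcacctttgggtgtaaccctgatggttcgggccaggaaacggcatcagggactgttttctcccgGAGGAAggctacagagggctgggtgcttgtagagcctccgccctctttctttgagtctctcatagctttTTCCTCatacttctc
Trem2: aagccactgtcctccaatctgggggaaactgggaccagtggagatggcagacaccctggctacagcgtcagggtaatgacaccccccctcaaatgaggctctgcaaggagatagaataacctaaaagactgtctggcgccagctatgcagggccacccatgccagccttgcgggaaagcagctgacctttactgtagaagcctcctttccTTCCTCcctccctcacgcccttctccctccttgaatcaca
A match describes the letters and is not a measured site. With the counted windows placed as above, no read over these stretches enters the results below.

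Nuclear reads in intervals ranged from 1.58 to 15.1 M (megareads) per library, and the peak libraries, at 1.58 to 3.702 M, were the shallowest group. Of low nuclear counts (1 to 8 reads), 79.86% were even, the pattern of both mates of a read pair being counted, so reads are not independent fragments. Onset replicate 3 stood apart, with 8.36% of its interval reads from mitochondrial genes against 34.4% to 64.7% in the other 15 libraries. Olfactory and vomeronasal receptor genes serve smell, and their 1450 intervals were taken as a reference for chromatin expected to be closed in retina. Of the 1408 receptor intervals with a window of at least 500 bp, 906 belonged to genes under 1000 bp, whose windows take in the start and flanking DNA, and 342 to genes over 2000 bp, counted as the members were. They held between 0.192% and 0.562% of nuclear reads, with the highest shares in naive replicates 3 and 4 and peak replicate 3. Markers of ganglion cells had a median read density of 0.988 reads per kb of window per M nuclear reads. Rod markers had a median of 1.79, above that of the labelled cell type.

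Read density was below the median of tested genes for most of the myeloid genes. The median of the 9 genes was 0.466 reads per kb of window per M nuclear reads (mean of 16 libraries for each gene), against 0.677 over all tested genes. The median of receptor intervals was 0.696 over all 1408 and 0.532 over the 342 of genes over 2000 bp, the like-for-like set. Of the 9, 6 were under the median of tested genes, and 4 were in its lowest 10%: Aif1, Cx3cr1, Itgam and Tyrobp. Aif1 and Tyrobp did not pass the read filter that defines tested genes, so their low rank is partly built in. Tested genes also include short genes whose windows take in the start. Csf1r, P2ry12 and Trem2 were above the medians of tested genes and of receptors, and 5 of the 9 were under the like-for-like receptor median. The comparison with receptors did not go 1 way in every library. The median of the 9 genes over the receptor median was 0.919 ± 0.429 (SD, n = 15 libraries with a receptor median above 0), from 0.287 in naive replicate 3 to 1.66 in naive replicate 5, and above 1 in 5 of 15. With the like-for-like set, chosen after seeing the data, it was 1.14 ± 0.467 (SD, n = 16) and above 1 in 9 of 16. A low density in such bulk libraries cannot tell fewer myeloid cells from less accessible DNA in each cell. Nor can it tell reads of myeloid cells from background reads of the other sorted cells.

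**Figure D1:**
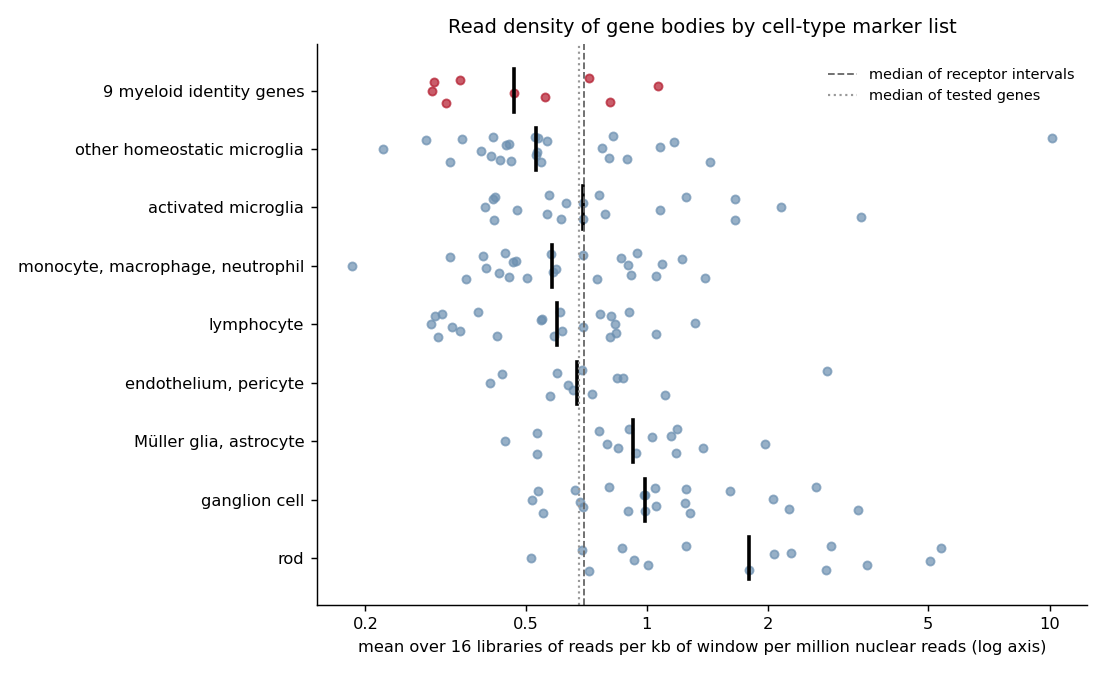
Each point is a gene, placed by its mean over 16 libraries of reads per kb of window per M nuclear reads (log axis), and the black bars are list medians. The 9 myeloid identity genes (red) have a median of 0.466, left of the medians of all receptor intervals and of tested genes (dashed and dotted lines), while ganglion cell and rod markers lie to the right, at 0.988 and 1.79.

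The order of the 9 genes by density, per length of window, began with Csf1r at 1.06 ± 0.321 (SD, n = 16), P2ry12 at 0.810 ± 0.141 and Trem2 at 0.720 ± 0.374. Ptprc followed at 0.558 ± 0.112 and Tmem119 at 0.466 ± 0.412. Itgam (0.344 ± 0.142), Aif1 (0.317 ± 0.356), Cx3cr1 (0.296 ± 0.187) and Tyrobp (0.292 ± 0.209) closed the order. No neighbours in this order differed beyond their spread. The widest step, from Csf1r to P2ry12, was 0.252 ± 0.404 (SD of the paired difference, n = 16), with Csf1r higher in 12 of 16 libraries. The last step, from Cx3cr1 to Tyrobp, was 0.00402 ± 0.216.

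Cx3cr1 (chr9:120048683-120068296, minus strand, as deposited) encodes the fractalkine receptor, a defining gene of microglia. Its CPM (counts per megaread in intervals, TMM-scaled) was 3.10, 2.64, 0.460, 4.96 and 4.10 in the naive libraries. It was 4.62, 2.54, 1.43 and 1.40 in the presymptomatic libraries, 1.63, 0.623 and 5.11 at onset and 4.39, 2.28, 2.57 and 0.622 at peak. Every stage overlapped naive, and onset held both a library near the bottom and the highest of all 16, onset replicate 3. The log2 fold change from naive was −0.24 (SE 0.58) before symptoms, −0.29 (SE 0.63) at onset and −0.24 (SE 0.60) at peak. Without onset replicate 3 the onset value was −1.51, with an edgeR unadjusted p of 0.0563 and an adjusted p of 0.979.

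Cx3cl1, which encodes the ligand that neurons make for this receptor, was a contrast in level. Its density was 2.26 ± 0.908 (SD, n = 16), above 94.1% of tested genes, while that of Cx3cr1 was above 4.07% of them. The ligand gene was denser than the receptor gene in 16 of 16 libraries, with a ratio of the means of 7.65. Cx3cl1 itself had log2 fold changes of −0.13, 0.21 and −0.03 at the 3 stages, none past the test.

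Csf1r (chr18:61096809-61131139, plus strand) encodes the receptor for CSF1 and IL-34, on which microglia depend for survival. Its CPM was 17.3, 21.9, 14.6, 16.3 and 33.3 in naive libraries and 24.5, 14.6, 17.5 and 10.9 before symptoms. At onset it was 20.7, 18.8 and 14.1, and at peak 12.6, 18.2, 12.4 and 18.3. Naive replicate 5 was the highest library, and the ranges of all stages overlapped. The log2 fold change of Csf1r at peak was −0.43 (SE 0.28, edgeR unadjusted p = 0.134, adjusted p = 1.000), with a 95% interval of −1.01 to 0.14. Its onset value of −0.21 (SE 0.30) became 0.024 without naive replicate 5. The deposited start of Csf1r is not the RefSeq one, so its window may hold a further start, which was not examined. Csf1r was the densest of the 9 genes, above 77.7% of tested genes and at 2.12 times the mean receptor density on average. The microRNA gene Mir6983 lies inside it and spans 64 bp; its window of 1936 bp, with a density of 0.616, is mostly Csf1r sequence. The adjoining Pdgfrb (0.730) and Hmgxb3 (0.490) were less dense than Csf1r in 14 and 15 of 16 libraries.

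The ligand genes of this receptor were less dense than Csf1r. Csf1 stood at 0.635 ± 0.208 and Il34, which retinal neurons are known to make, at 0.485 ± 0.134 (SD, n = 16), and Csf1r was higher than either in 16 of 16 libraries. At peak, the log2 fold changes were 0.22 for Csf1 and −0.35 for Il34, and neither passed the test at any stage.

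P2ry12 (chr3:59216271-59263014, minus strand) encodes the ADP receptor that guides microglial processes, and is a marker of the resting state. Its CPM was 21.9, 15.0, 26.3, 15.8 and 16.001 in naive libraries and 16.1, 22.2, 18.6 and 19.6 before symptoms. It was 14.4, 19.0 and 14.7 at onset and 16.7, 20.5, 22.5 and 23.6 at peak. The spread was narrow, with a coefficient of variation in density of 17.4% over 16 libraries against 63.2% for Cx3cr1. The log2 fold changes were 0.01 (SE 0.23), −0.24 (SE 0.26) and 0.13 (SE 0.24), and the 95% interval at peak was −0.35 to 0.62.

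P2ry12 does not stand alone in the genome: it lies inside Med12l, a Mediator subunit gene on the opposite strand. ATAC-seq carries no strand, so reads in the P2ry12 window are reads in Med12l too. Med12l without the P2ry12 window had a density of 1.19 ± 0.164, against 0.810 ± 0.141 in the P2ry12 window (SD, n = 16), and was higher in 16 of 16 libraries. The P2ry12 window was therefore less dense than the rest of the gene around it. P2ry13, a related purine receptor gene nearby and also a microglial gene, lies inside Med12l too, so its reads are also reads in Med12l. The rest of Med12l given above includes the P2ry13 window, which held 1078 reads against 38166 over all of Med12l. P2ry13 had a density of 10.2 ± 4.08, above 99.0% of tested genes. Its window was 991 bp, and it exceeded P2ry12 in 16 of 16 libraries at every stage, naive included.

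**Figure D2:**
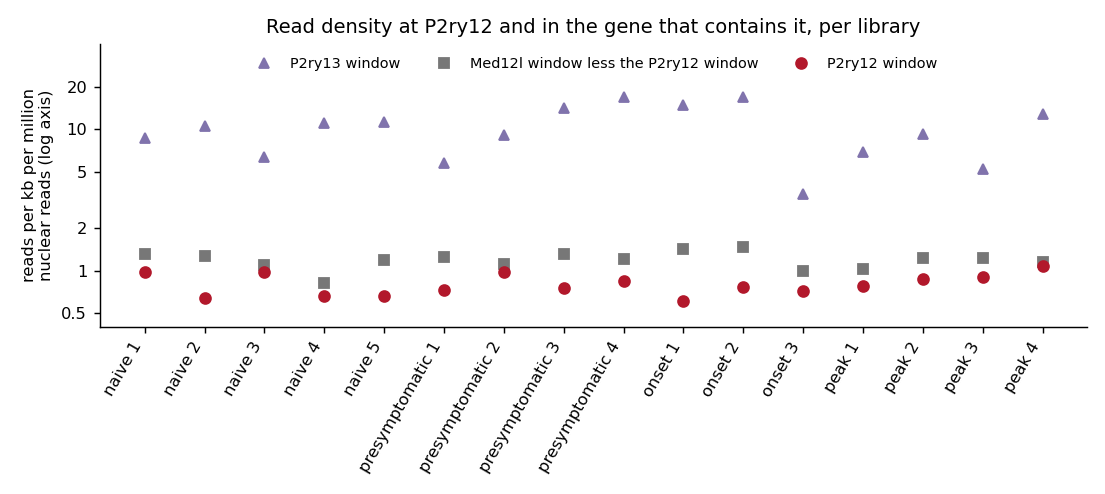
Reads per kb per M nuclear reads (log axis) in each of the 16 libraries for the P2ry12 window (circles), the rest of the Med12l window (squares) and the P2ry13 window (triangles). The P2ry13 window lies inside the rest of Med12l and is counted in it. The P2ry12 window is below the rest of Med12l in every library, and P2ry13 is above both.

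Trem2 (chr17:48346401-48352276, plus strand) encodes the lipid receptor of activated microglia, and Tyrobp (chr7:30413788-30417582, plus strand) the adaptor through which TREM2 signals. Trem2 CPM was 1.496, 0.686, 2.76, 3.69 and 1.26 in naive libraries and 0.851, 1.60, 1.22 and 0.931 before symptoms. It was 1.004, 1.87 and 1.11 at onset and 1.98, 1.14, 1.28 and 0.622 at peak. The highest pair of libraries was naive, replicates 3 and 4, which also had the largest receptor shares. The log2 fold changes of Trem2 were −0.74 (SE 0.55), −0.53 (SE 0.58) and −0.58 (SE 0.57), with edgeR unadjusted p-values of 0.188, 0.370 and 0.314 and adjusted p-values of 0.992 or more. The 3 comparisons share the naive libraries.

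Tyrobp was too sparse to test, with 61 reads over 16 libraries in a window of 1795 bp. Its counts were 2, 11, 2, 4 and 4 in naive libraries, 2, 6, 2 and 0 before symptoms, 4, 8 and 10 at onset and 2, 0, 4 and 0 at peak. A count of 0 in peak replicate 4 allows up to 3.81 reads per M nuclear reads (3 fragments of 2 reads each, counting error only). Tyrobp density was 0.563 times the mean receptor density on average. Hcst, the sister adaptor gene beside it, had a window of 143 bp and 3 reads in all. Apoe, whose product binds TREM2, stood at 1.38 ± 0.851 (SD, n = 16) and was denser than Trem2 in 12 of 16 libraries; Müller glia also express it. Syk, the kinase recruited by TYROBP, had a density of 0.508 ± 0.125 and exceeded Tyrobp in 12 of 16.

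Itgam (chr7:128062640-128118491, plus strand) encodes CD11b, the integrin chain used to sort myeloid cells. Its CPM was 7.59, 10.1, 10.04, 3.16 and 20.2 in naive libraries, and 9.48, 7.83, 8.57 and 12.3 before symptoms. It was 8.16, 4.62 and 9.95 at onset and 13.5, 6.13, 9.64 and 12.4 at peak. Naive libraries spanned all the others, from the lowest to the highest value of the 16. The log2 fold changes were −0.12 (SE 0.37), −0.44 (SE 0.40) and 0.01 (SE 0.37). Itgb2, which encodes the CD18 chain that pairs with CD11b, had a density of 0.596 ± 0.203 and was higher than Itgam in 13 of 16 libraries. Icam1, a ligand of the pair, was as sparse as Itgam at 0.311 ± 0.177, and higher in 7 of 16.

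Ptprc (chr1:138062859-138175756, minus strand) encodes CD45, found on all white blood cells and at a low level on microglia. It had the most reads of the 9 genes, 6559 in a window of 110898 bp, and the tightest estimate. Its CPM was 30.6, 34.6, 31.8, 33.5 and 27.9 in naive libraries and 30.1, 28.4, 33.5 and 53.8 before symptoms. It was 33.4, 37.6 and 28.6 at onset and 23.8, 27.9, 30.995 and 29.2 at peak. Presymptomatic replicate 4 was the single high library, and without it the presymptomatic log2 fold change went from 0.19 (SE 0.21) to −0.040. At onset the value was 0.07 (SE 0.23) and at peak −0.18 (SE 0.22), with a 95% interval of −0.63 to 0.27. A doubling of the level lies outside that interval. The density of Ptprc, 0.558, was 1.05 times the mean receptor density.

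Tmem119 (chr5:113793729-113800358, minus strand) encodes a membrane protein used to tell microglia from infiltrating macrophages. It was the gene with the largest difference among the tested 7, on few reads: 2 to 50 per library. Its CPM was 1.28, 0.446, 0.613, 0.843 and 0.158 in naive libraries and 0.304, 0.725, 0.816 and 2.56 before symptoms. It was 0.502, 0.183 and 2.30 at onset and 0.850, 1.14, 3.85 and 1.24 at peak. A single library was high in each disease stage, and the others lay within the naive range. At peak the log2 fold change of Tmem119 was 1.45 (SE 0.78), with a 95% interval of −0.14 to 3.03, an edgeR unadjusted p of 0.0727 and an adjusted p of 1.000. Without peak replicate 3 the difference was 0.71. Without naive replicate 1 it was 1.80 and without peak replicate 1 it was 1.68, with edgeR unadjusted p-values of 0.0414 and 0.0493. In those fits 1080 of 29872 and 949 of 29604 tested genes were at an unadjusted p under 0.05, and 0 were called after adjustment. The onset value, 0.64 (SE 0.81), was −1.05 without onset replicate 3, and the presymptomatic value, 0.61 (SE 0.79), was −0.079 without presymptomatic replicate 4.

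Aif1 (chr17:35170991-35176080, minus strand) encodes IBA1, the cytoskeletal protein by which microglia are stained. It did not pass the filter on low counts, with 102 reads in all. Its counts were 6, 15, 6, 2 and 0 in naive libraries, 10, 5, 5 and 0 before symptoms, 4, 2 and 25 at onset and 4, 16, 2 and 0 at peak. Onset replicate 3 and peak replicate 2 were the high libraries. In a fit with no filter, the log2 fold changes were −0.03 (SE 1.04), 0.65 (SE 1.02) and 1.16 (SE 0.98), and the interval at peak ran from −0.83 to 3.14. For Tyrobp the same fit gave −0.62 (SE 1.05), 0.47 (SE 1.06) and −0.28 (SE 1.11).

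The genes beside the other members differed from them in both directions. Prrc2a (density 0.416) and Lst1 (0.553), on either side of Aif1, were denser than Aif1 in 14 and 12 of 16 libraries, and Xirp1 (0.874) exceeded Cx3cr1 in 16 of 16. Beside Tmem119, Iscu (0.956) was denser in 12 of 16 libraries and Gm42004 (0.312) in 4. Trim72 (0.473) and Itgax (0.416), the CD11c gene, exceeded Itgam in 10 and 9 of 16, and B430306N03Rik (0.651) and Treml1 (0.626) exceeded Trem2 in 7 each. Gm34353 (0.680) and Atp6v1g3 (0.775) exceeded Ptprc in 10 and 15 of 16, Gm32029 (0.274) exceeded Tyrobp in 6, and Igsf10 (1.06) exceeded P2ry12 in 16. Gm33858, beside Cx3cr1, had a window of 485 bp with 26 reads and was given no density.

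**Figure D3:**
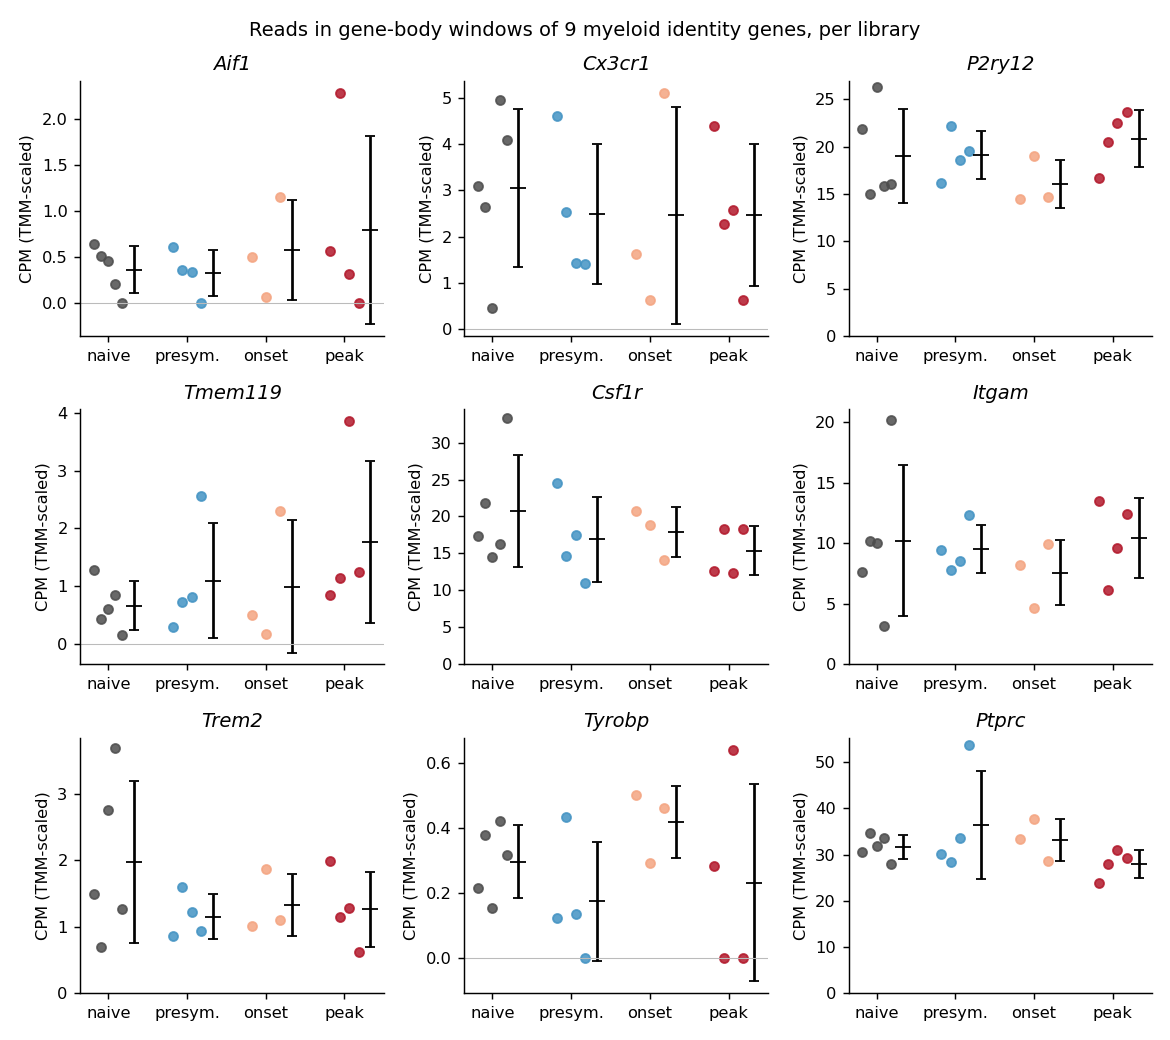
CPM (TMM-scaled) of the 9 genes in each library by stage, with points for libraries and bars for mean ± SD. The groups overlap naive for all 9 genes, and the single high points of Tmem119 at peak (3.85) and of Ptprc before symptoms (53.8) are visible.

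Across the 3 comparisons with naive, 0 of the 7 tested genes passed at an adjusted p of 0.05 in edgeR's quasi-likelihood test, which called 0% of 29902 genes in each. At an unadjusted p under 0.05 the number of members was also 0 in each comparison. The share of all tested genes at that level was 1.16% before symptoms, 4.95% at onset and 3.61% at peak. DESeq2 called 0 members, and 0, 0 and 1 genes over the whole table; limma-voom called 0. None of the 27 comparisons of a gene's stage with naive was free of overlap between the groups. Over tested genes, groups free of overlap with higher values made up 0.365%, 1.6% and 0.502% and with lower values 0.482%, 0.936% and 0.475%, in the order of stages. The comparisons between stages called 0 members as well, and 0 were at an unadjusted p under 0.05. Over the table, 4.13% of genes were at that level from presymptomatic to onset, 6.65% from onset to peak and 3.41% from presymptomatic to peak, with an adjusted share of 0% each. DESeq2 called 1, 4 and 0 genes there. An F test over the 3 stages called 0 members, with unadjusted p-values from 0.336 (Tmem119) to 0.959 (Cx3cr1), and 3.16% of all genes at an unadjusted p under 0.05.

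The directions were mixed. Before symptoms 3 of the 7 tested genes were above naive, with a median log2 fold change of −0.12 against −0.06 over all tested genes. At onset 2 of 7 were above, with −0.24 against −0.01, and at peak 3 of 7, with −0.18 against −0.03. The summed reads of the 9 genes were 144 to 190 per M nuclear reads in naive libraries, 150 to 196 before symptoms, 151 to 170 at onset and 151 to 176 at peak, so every stage overlapped naive in the sum too. These values leave a rise or a fall within the intervals above undetected, most of all for Tmem119, Aif1 and Tyrobp.

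**Figure D4:**
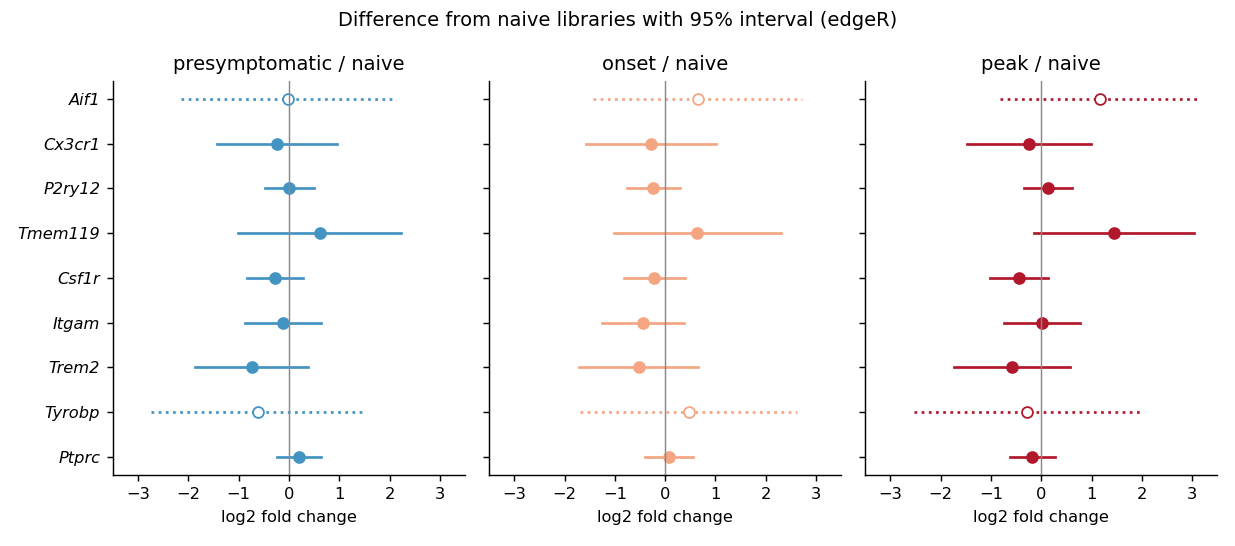
Log2 fold change of each gene from naive at the 3 stages, with 95% intervals from edgeR; open circles with dotted lines are Aif1 and Tyrobp from the fit with no filter. All intervals include 0, and they are narrowest for Ptprc and P2ry12 and wide for Tmem119, Aif1 and Tyrobp.

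Genes around the members in the pathway did not pass the test either. Of 16 ligands, coreceptors and signalling partners, 15 were tested, and 7, 11 and 8 of them were above naive at the 3 stages, with medians of −0.05, 0.13 and 0.01. None of the 15 was at an unadjusted p under 0.05 at any stage. Of 14 transcription factors of the myeloid lineage, 13 were tested, and 5, 6 and 5 were above naive, with medians of −0.17, −0.06 and −0.05, and again 0 at an unadjusted p under 0.05. Spi1 had log2 fold changes of 0.36, 0.35 and −0.05, Irf8, a partner of PU.1, of −0.55, −0.29 and −0.19, and Sall1, which sets microglial identity, of −0.20, −0.47 and 0.28. Spi1 (density 0.555) and Irf8 (0.357) were under the median of tested genes, and Sall1 (0.908) above it.

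Other homeostatic microglia genes had a median density of 0.529 and 9, 11 and 11 of 21 tested genes above naive, with 0 at an unadjusted p under 0.05. Genes of activated microglia had a median density of 0.692, and 9, 10 and 9 of 19 were above naive. Of these 19, 1 was at an unadjusted p under 0.05 at peak, a level that 3.61% of all tested genes reached. It was Clec7a, with −1.02 (SE 0.47, edgeR unadjusted p = 0.0379, adjusted p = 1.000). Monocyte, macrophage and neutrophil genes were lower in 13 of 20 at onset, with a median of −0.34, and 3 were lower at an unadjusted p under 0.05, a level that 3.38% of all tested genes reached downward and 1.57% upward. The 2 with the smallest p were Cybb (−1.41, SE 0.46, edgeR adjusted p = 0.972), a subunit of the phagocyte oxidase, and Adgre1 (−0.96, SE 0.35, same adjusted p), which encodes F4/80.

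Beside these onset values, reads at receptors and at rod genes moved too. The receptors were lower than naive at onset in 583 of 677 tested intervals, with a median of −0.76, and 62 of them were at an unadjusted p under 0.05. Rod genes were higher in 15 of 15, with a median of 1.04, and 10 of the 15 were at that level. The size of the rod rise rested largely on onset replicate 3, whose summed rod level was 1200 reads per M nuclear reads. The other onset libraries, at 537 and 517, lay within the naive range of 307 to 557. Without onset replicate 3 the rod median was 0.58, with 12 of 15 higher and 1 at that level. The receptor shift largely stayed without it, with 664 of 845 lower and a median of −0.66. The monocyte, macrophage and neutrophil median was then −0.28. The summed level of 24 monocyte, macrophage and neutrophil genes was 433 to 492 reads per M nuclear reads at onset, inside the naive range of 425 to 779. The part of these shifts in the values of the 9 genes was not tested beyond the relation that follows and the fit with receptor share as a covariate.

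Receptor share differed between libraries, so each gene's log2 CPM was set against the log2 receptor share over 16 libraries. Of the 9 relations, 0 passed adjustment by Benjamini-Hochberg. Trem2 had the strongest, with Pearson's r = 0.65 (permutation p = 0.00651, adjusted 0.0586) and Spearman's rho = 0.59 (permutation p = 0.0179, adjusted 0.105). Within stages r was 0.79, but without naive replicates 3 and 4, the farthest on the x axis, it was 0.34, so the relation rests on those libraries. P2ry12 had r = 0.56 (permutation p = 0.0247, adjusted 0.111) and rho = 0.54, and r = 0.51 within stages and 0.63 without the 2 libraries. Csf1r went the other way, with r = −0.52 (permutation p = 0.0369, adjusted 0.111) and rho = −0.54, −0.60 within stages and −0.56 without the 2. Both rho had a permutation p of 0.0351 and 0.0339, in that order, and an adjusted p of 0.105. For comparison, the median r was 0.54 over tested receptors and −0.08 over all tested genes. The quartiles over all tested genes were −0.389 and 0.325, so a sizeable r of either sign was common among them. The other 6 genes had r between −0.34 (Itgam) and 0.28 (Tmem119).

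**Figure D5:**
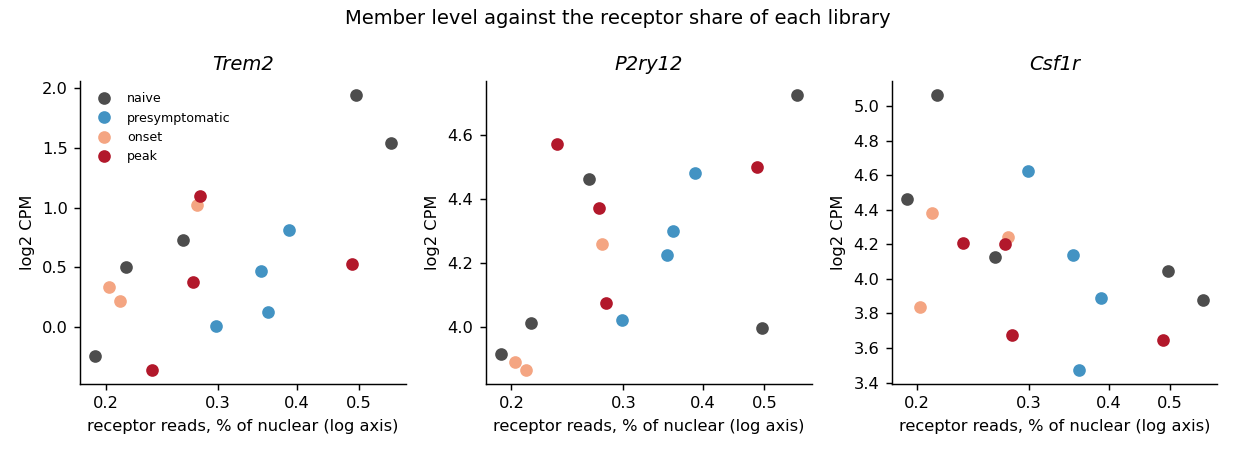
Log2 CPM of Trem2, P2ry12 and Csf1r in 16 libraries against the share of nuclear reads in receptor intervals (log axis), coloured by stage. Trem2 and P2ry12 lie higher and Csf1r lower in libraries with a larger receptor share, and naive replicates 3 and 4 are 2 of the points at the right edge.

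Pairs of members had correlations centred near 0 across libraries. Over the 21 pairs of the 7 tested genes, Pearson's r of log2 CPM ran from −0.77 to 0.31, with a median of 0.01 and 11 pairs above 0. A single pair passed adjustment over the 21, and it was an opposition: Tmem119 and Csf1r had r = −0.77 (permutation p = 0.00039, adjusted 0.00819) and rho = −0.78 (permutation p = 0.00052, adjusted 0.0109; n = 16). The value was −0.74 within stages and −0.67 without the 2 libraries farthest from the median. How often pairs of other tested genes reach such an r was not examined, so the value cannot be called particular to these genes. The permutation also treats all libraries as exchangeable. The windows of Tmem119 held few reads, and both genes are microglial. The gene with a pattern most like the mean of the 7 was Lcp1 (chr14:75131105-75230842, plus strand), with r = 0.83 over 16 libraries. It encodes L-plastin, an actin-bundling protein of white blood cells. Pck1 (r = 0.82), a gluconeogenic enzyme gene, and Ncapd2 (r = 0.81), a condensin subunit gene, came next. These 3 are the highest of 29902 tested genes by this measure, with no test. The highest of so many correlations over 16 libraries can be this large by chance, so the ranking carries no reading of cell type.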

How the data were processed

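Per the submitters' processing notes, reads were handled with cutadapt, HISAT2 and HTSeq; versions, build and annotation are not given in the sources used here, so coordinates are printed as deposited. The counts deposited by the authors are whole numbers per interval. The RPKM values deposited by the authors imply interval lengths equal to the absolute difference of the gene span and 2000 bp. The 2000 bp were taken as 1000 bp at each end, which the lengths alone do not fix. So placed, starts as deposited are not counted for genes over 1000 bp, while windows of shorter genes reach past them. The RPKM values were used only to derive lengths and library totals. Genes with identical intervals had equal counts in 284 of 284 cases, so reads in overlapping genes count for each.

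Counts were tested with edgeR 4.0.16 in R 4.3.3: filterByExpr (minimum count 10, total 15; 29902 genes kept), TMM scaling, quasi-likelihood fits with 1 mean for each stage over all 16 libraries, and Benjamini-Hochberg adjustment over all genes (threshold 0.05). The script was tested on simulated data. Log2 CPM used a prior count of 2. Density used nuclear reads and windows of at least 500 bp. Relations used 100000 permutations. DESeq2 1.42.0, limma-voom (limma 3.58.1), other scalings, filters, a replicate block, a receptor-share covariate and leaving out each library were alternatives. Named genes are the 9 members, their overlapping or nearest neighbours, 8 partners and factors, the 2 genes with the smallest p per other list and comparison, and the 3 genes most like the members' mean. Further partner genes are given by density. The members and lists were chosen with earlier results of these data known. The design had foreseen windows around starts, and the tests were applied unchanged to gene bodies. Some genes this rule names are not reported here.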

Additional observations from a re-analysis of the deposited data

Results flagged for a closer look

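Tmem119 at disease peak was singled out because 1 library lay far from the other 3. Peak replicate 3 had a CPM of 3.85, while the others ranged from 0.850 to 1.24. The gap to the nearest library was 0.869 of the whole range, above Dixon's 95% critical value of 0.829 for 4 samples. Chance gives about 1 such case in 20 groups, and this was 1 of 27 groups examined over the 9 genes. The value rests on 24 reads. Taken as fragments of 2 reads each, the exact Poisson interval is 12.4 to 41.9 reads, which covers counting error only. Peak replicate 3 also had the largest receptor share among the peak libraries, 0.487%. Over the 16 libraries Tmem119 had r = 0.28 with the receptor share, which did not pass adjustment. The part of that share in the value of this library was not tested.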

How the results depend on the processing

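The number of members called was 0 in all 7 comparisons under every alternative fit. It was also 0 in the 3 with naive by the exact permutation test, which could hardly have called any. Its smallest possible p was 0.00794 before symptoms and at peak and 0.0179 at onset. A call after adjustment over 29902 genes would need very many genes at that p, so no conclusion is drawn from it. The median over genes of the mean density ratio to receptors was 0.833. It was 0.697 to 0.882 under the other references and without each library, and 1.06 with receptor genes over 2000 bp only, which was added after seeing the data. With the replicate number as a block, the count of members called was 0 in each comparison. The numbers showed no sign of pairing the libraries, though so few libraries in each stage cannot exclude it. The 21 same-number pairs had correlations of −0.34 to 0.37, with a median of −0.006 against 0.013 in the 74 other pairs. Of the 21, 6 were over 0.1, and 2 of 16 libraries correlated best with their own number.

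Some fold changes turned sign, none of them past the threshold, among them those of Tmem119 before symptoms (0.61) and at onset (0.64) and of Trem2 at onset (−0.53). The cause was not tested. Under the replicate block, log2 values were −0.047 for P2ry12 and 0.27 for Itgam before symptoms and −0.012 for Tmem119 at onset. With the receptor covariate they were −0.028 (P2ry12) and 0.033 (Itgam) before symptoms and 0.15 (Trem2) at onset. The difference of mean log2 CPM in the exact permutation test was 0.11 for Itgam before symptoms. Without libraries 16 and 17 (presymptomatic replicate 4 and onset replicate 3) they were −0.070 (Tmem119) and −0.032 (Ptprc) before symptoms, −1.05 (Tmem119) at onset and −0.0061 (Itgam) at peak. With voom weights they were −0.41 (Tmem119) and 0.0083 (Trem2) at onset, and with no filter −0.0027 (Itgam) at peak.

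Leaving out 1 library at a time gave, before symptoms, −0.079 to 0.16 for P2ry12, −0.079 to 0.97 for Tmem119, −0.34 to 0.28 for Itgam and −0.040 to 0.29 for Ptprc. At onset it gave −1.51 to 0.20 for Cx3cr1, −1.05 to 1.16 for Tmem119, −0.32 to 0.024 for Csf1r and −0.030 to 0.16 for Ptprc. At peak it gave −0.65 to 0.027 for Cx3cr1 and −0.21 to 0.41 for Itgam. Tmem119 was at an unadjusted p under 0.05 from onset to peak without onset replicate 3, alone or with library 16. In those fits 2109 of 30574 and 2178 of 30834 tested genes were at that level, and 0 were called after adjustment. Depth limits Aif1, Tyrobp, Tmem119 and Trem2 most, with medians of 3 to 15 reads per library.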

Other observations

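Values for genes among the 2 with the smallest p in each of the other lists are log2 fold changes from naive, and all had an edgeR adjusted p of 0.972 or more. Among homeostatic microglia genes these included Fcer1g (−0.83) before symptoms, Slc2a5 (0.30) and Fcrls (−0.55) at onset, and Fcer1g (−1.44) and Gpr34 (0.46) at peak. Fcer1g encodes the Fc receptor gamma chain, and its peak level was 0.628 ± 0.700 CPM (SD, n = 4) against 1.69 in naive libraries. Among activated microglia genes they were Cd9 (−0.53) and Ctsb (−0.59) before symptoms, Igf1 (−0.35) and Cd9 (−0.41) at onset, and Clec7a (−1.02) and Cd9 (−0.58) at peak. Cd9, a tetraspanin gene, thus had a value below naive at all 3 stages, which share the naive libraries. In the monocyte, macrophage and neutrophil list they were Cd163 (−0.61) and Adgre1 (−0.47) before symptoms, Cybb and Adgre1 at onset as given above, and Adgre1 (−0.61) and Itga4 (0.37) at peak.

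Among lymphocyte genes the values included Ncr1 (1.28), Foxp3 (−0.78) and Cd8a (−1.14), and Cd8b1 (−1.33) and Foxp3 (0.74), in the order of stages, with 1, 2 and 2 genes given. Cd8b1, a chain of the CD8 coreceptor, was the 1 of 19 tested lymphocyte genes at an edgeR unadjusted p under 0.05 at peak. Of all tested genes, 3.61% were at that level. In the same order, the partner pairs were Plcg2 (−0.28) and Ptpn6 (0.41), Ptpn6 (0.52) and Lck (0.41), and Ptpn6 (0.71) and Cd2ap (0.30). The factor pairs were Runx1 (−0.32) and Irf8 (−0.55), Sall1 (−0.47) and Irf5 (0.35), and Cebpa (−1.15) and Batf3 (0.95).

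In lists of other retinal cells, ganglion cell genes gave Isl2 (−0.88) and Thy1 (−0.65), Slc17a6 (−0.84) and Sncg (−1.31), and Isl1 (0.65) and Opn4 (0.57). Rod genes gave Pde6b (−0.49) and Gnat1 (−0.47), Prph2 (1.37) and Nrl (1.23), and Nrl (−0.61) and Cnga1 (0.40). Müller glia and astrocyte genes gave Rlbp1 (−0.46) and Slc1a3 (−0.24), Slc1a3 (−0.32) and S100b (−0.62), and Clu (−0.92) and Glul (−0.89). Endothelial and pericyte genes gave Pecam1 (−0.45) and Kdr (0.19), Tek (−0.45) and Pdgfrb (0.50), and Rgs5 (0.34) and Flt1 (−0.28).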
